A study of Mus musculus with 6 samples.

Results

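The 10 genes Cxcl12, Kitl, Lepr, Col1a1, Col1a2, Col3a1, Sparc, Cdh5, Emcn and Pecam1 are products of the bone marrow niche: factors of its stromal cells, proteins of its matrix and surface proteins of its endothelium. They were chosen by symbol from the 23228 genes of the deposited expression table, and all 10 symbols were found. Levels were measured by RNA sequencing in 6 libraries of sorted LSK cells, a bone marrow fraction without lineage markers that carries Sca-1 and c-Kit and is rich in stem and progenitor cells. Wild-type Ly5.1+ donor cells had been transplanted into Ly5.2+ recipients of the C57BL/6 strain, either wild type (WT) or ICAM-1-/-, with 3 libraries for each, and were recovered by sorting after 8 weeks. The donor cells of both groups were wild type, and both sets of recipients had been transplanted. The deletion was carried by the recipients, whose marrow supplies the niche. The labels name no age, sex, conditioning or number of animals per library, so a p-value measures only the spread between these libraries.

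In mouse marrow, perivascular stromal cells marked by the leptin receptor Lepr are a main source of the chemokine Cxcl12 and of stem cell factor, the product of Kitl. Stem cells read these signals through Cxcr4 and Kit, and an adhesive niche keeps them in place. Sorted LSK cells are not stromal cells, but endothelium and blood stem cells share a number of surface proteins, Pecam1 and Emcn among them.

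Levels are FPKM, fragment numbers per transcript length and library size, and carry no read depth. Many genes were listed at 0, including genes used by every cell: of 4377 genes that averaged 10 FPKM or more, WT replicate 1 listed 1007 at 0, ICAM-1-/- replicate 1 listed 221, and the other 4 libraries listed 16 to 87. A 0 is therefore given only as listed at 0. The replicate 1 libraries of both groups stood apart. Scarna2, a small RNA, held 63.9% and 43.1% of their FPKM, and Xist was at 241 and 73.5 FPKM in them, against 0.0487 to 0.153 FPKM in the other 4. ICAM-1-/- replicate 2 also lay apart, with a median-of-ratios size factor of 0.41 against 0.963 to 1.38 elsewhere. Of the 10 LSK markers, Kit ranged from 6.88 to 44.7 FPKM over the 6 libraries. In WT replicate 1, Ly6a, which encodes Sca-1, was listed at 0 and Cd34 stood at 0.0203 FPKM. In the same library 8 of the 10 were above 0, among them Flt3 at 28.1 and Cd48 at 22.7 FPKM. Ptprc was higher there, at 93.2 FPKM, than in any other library.

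Cxcl12, Lepr, Col1a1, Col1a2 and Sparc were highest in the replicate 1 libraries of both groups, whatever the genotype of the recipient. Pecam1 was the sole member above 0 in all 6 libraries, and Emcn was listed at 0 in both replicate 1 libraries. So was Col3a1, and of all genes only 28.0% (WT) and 44.1% (ICAM-1-/-) were above 0 in these libraries. No member differed between WT and ICAM-1-/- recipients by the test used. Promoter windows are shown for 3 members because they stand for these patterns: Cxcl12 and Col1a2 for the genes that were highest in both replicate 1 libraries, and Emcn for a gene listed at 0 in both. The windows run from 250 bases before to 50 bases after the RefSeq transcription start (GRCm38.p6) and read 5′ to 3′, with matches to the 4 motifs searched in capitals.
Cxcl12 (chr6:117168285-117168584, plus strand): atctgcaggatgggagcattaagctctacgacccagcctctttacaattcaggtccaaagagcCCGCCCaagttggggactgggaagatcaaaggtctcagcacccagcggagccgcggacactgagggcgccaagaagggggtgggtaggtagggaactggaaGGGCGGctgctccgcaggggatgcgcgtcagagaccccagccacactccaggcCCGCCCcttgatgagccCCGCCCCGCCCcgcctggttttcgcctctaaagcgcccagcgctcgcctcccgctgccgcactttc
Col1a2 (chr6:4505368-4505667, plus strand): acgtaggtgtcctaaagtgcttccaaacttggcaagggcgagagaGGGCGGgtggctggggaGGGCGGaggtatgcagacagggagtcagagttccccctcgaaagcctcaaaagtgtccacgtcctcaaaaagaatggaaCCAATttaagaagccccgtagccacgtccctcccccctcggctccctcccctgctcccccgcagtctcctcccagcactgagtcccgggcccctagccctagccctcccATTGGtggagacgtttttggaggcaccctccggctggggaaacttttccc
Emcn (chr3:137340828-137341127, plus strand): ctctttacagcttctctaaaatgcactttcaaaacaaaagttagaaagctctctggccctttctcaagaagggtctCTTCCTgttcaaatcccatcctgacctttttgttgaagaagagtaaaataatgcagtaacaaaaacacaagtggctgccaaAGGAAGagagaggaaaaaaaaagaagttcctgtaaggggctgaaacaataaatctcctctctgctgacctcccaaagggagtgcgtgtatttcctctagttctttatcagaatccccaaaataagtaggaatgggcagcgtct

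A first motif, CCAAT, is a sequence bound by the factor NF-Y. The second, TATAAA, is a form of the TATA box. The third, GGGCGG, is the core of a GC box that Sp1 binds. The last, AGGAAG, is a form of the site that ETS factors bind. Each was sought on both strands. The Cxcl12 window held 5 matches to GGGCGG and none to the others. The Col1a2 window held 2 matches to CCAAT and 2 to GGGCGG, and the Emcn window held 2 matches to AGGAAG alone. Over all 32851 RefSeq promoter windows of 300 bases, 37.4% held CCAAT, 13.6% TATAAA, 35.7% GGGCGG and 35.4% AGGAAG. These shares are the background for the matches above. Of the 10 members, 7 matched the promoter table, with 8 windows in all. The Kitl window held TATAAA once and GGGCGG 3 times, the Col3a1 window held TATAAA once, and the Sparc window held none of the 4 motifs. The Lepr window that starts at base 101717157 held CCAAT once. Its window that starts at base 101717656 held GGGCGG and AGGAAG, each 1 time. The motifs are not read as sorting the members by pattern.

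**Figure D1:**
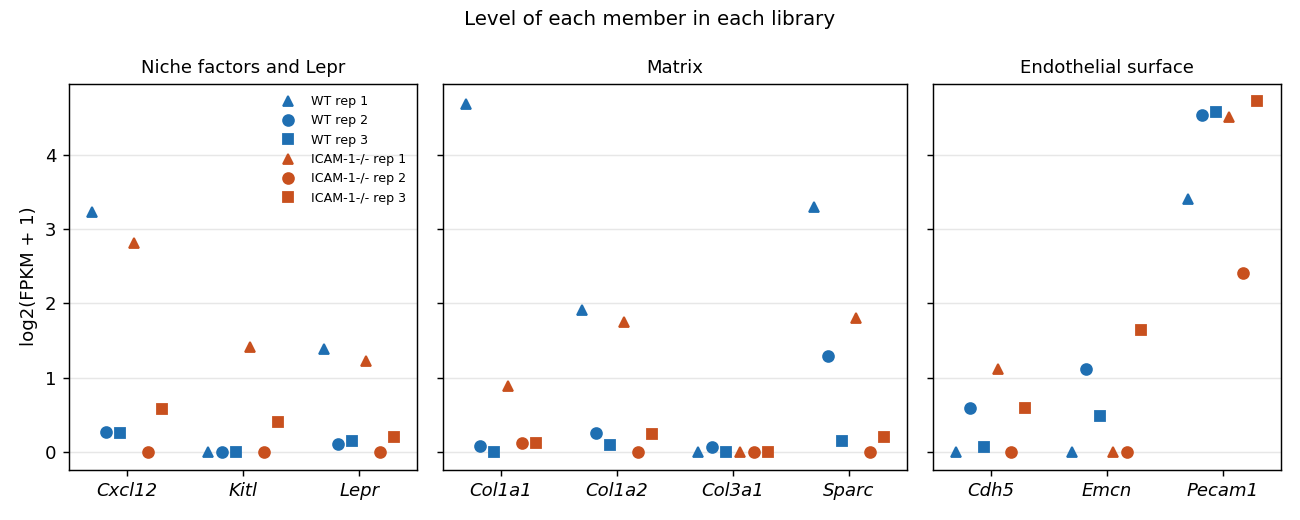
Level of each of the 10 members in each library, as log2(FPKM + 1); colour marks the recipient group and symbol shape the replicate number, and each point is 1 library. The triangles of replicate 1 lie highest for Cxcl12, Lepr, Col1a1, Col1a2 and Sparc in both groups, and Pecam1 is the member above 0 in every library.

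Cxcl12, the chemokine that holds stem cells in the marrow, measured 8.37, 0.204 and 0.195 FPKM across the WT libraries (replicates 1, 2 and 3). Across the ICAM-1-/- libraries, in the same order, it measured 6.04, 0 and 0.489 FPKM. The replicate 1 library was the highest of its group in both groups, and the groups overlapped. The lower of the replicate 1 values, 6.04 FPKM, was 12.4 times the highest value of the other 4 libraries. Among genes above 0 in the same library, Cxcl12 lay at percentile 35.5 (WT) and 39.9 (ICAM-1-/-) of the replicate 1 libraries, below the middle of the detected genes. In the other libraries in which it was above 0, it lay between percentiles 7.90 and 16.3.

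Lepr, the receptor that marks perivascular stromal cells, was likewise highest in both replicate 1 libraries, at lower values. Its level, again by replicate, was 1.62, 0.0784 and 0.112 FPKM after transplantation into WT mice and 1.34, 0 and 0.149 FPKM after transplantation into ICAM-1-/- mice. The replicate 1 values of the groups lay within 1.21-fold of each other. The ratio of Cxcl12 to Lepr was 5.18 and 4.51 in the replicate 1 libraries of WT and ICAM-1-/- recipients, and 1.74 to 3.28 in the 3 others that had both genes.

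Kitl did not follow Cxcl12 and Lepr. Every WT library and ICAM-1-/- replicate 2 listed it at 0, and it reached 1.67 FPKM in replicate 1 and 0.32 FPKM in replicate 3 of the ICAM-1-/- group. The groups overlapped at 0, so no fold is given.

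Type I collagen is a trimer of Col1a1 and Col1a2 chains, with more of the former, and is the main fibre of bone matrix. Col1a1 measured 24.6, 0.059 and 0 FPKM in the WT group, by replicate, and 0.847, 0.0861 and 0.0897 FPKM in the ICAM-1-/- group. WT replicate 1 was far above every other library, 29-fold over ICAM-1-/- replicate 1, which in turn was above the other 4. Col1a2 measured 2.77, 0.192 and 0.0673 FPKM in the WT group and 2.36, 0 and 0.188 FPKM in the ICAM-1-/- group. Its replicate 1 libraries differed by 1.18-fold. On the per-length scale of FPKM, the ratio of Col1a1 to Col1a2 was therefore 8.87 in WT replicate 1, against 0.359 (ICAM-1-/- replicate 1), 0.307 (WT replicate 2) and 0.477 (ICAM-1-/- replicate 3). Col1a1 exceeded Col1a2 in WT replicate 1 and, where Col1a2 was listed at 0, in ICAM-1-/- replicate 2.

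Sparc encodes a secreted protein that binds collagen. By replicate, the WT group had 8.86, 1.45 and 0.107 FPKM, and the ICAM-1-/- group had 2.50, 0 and 0.149 FPKM. Replicate 1 was again highest in each group, but the margin was small: ICAM-1-/- replicate 1 was 1.73 times WT replicate 2. Col3a1, the chain of the collagen of reticular fibres, was listed at 0 in 5 libraries with 0.0511 FPKM in WT replicate 2. Col3a1 was thus listed at 0 in the libraries with the most Col1a1 and Col1a2, but also in most of the others. It cannot show whether the collagens moved as a set.

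Pecam1, an adhesion molecule of endothelial junctions that is also found on blood stem cells, platelets and myeloid cells, was the most abundant member in 5 of the 6 libraries, the exception being WT replicate 1, where Col1a1 was higher. Levels by replicate were 9.59, 22.2 and 22.7 FPKM in the WT group, with a mean of 18.2 ± 7.45 (SD, n = 3). In the ICAM-1-/- group they were 21.8, 4.29 and 25.4 FPKM, with a mean of 17.2 ± 11.3 (SD, n = 3). It was low in WT replicate 1 and ICAM-1-/- replicate 2 and even across the other 4 libraries. Its percentile among detected genes was 40.0 in WT replicate 1 and 59.2 to 85.3 in the other 5.

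Emcn, a sialomucin of venous and sinusoidal endothelium that mouse stem cells also carry, was listed at 0 in both replicate 1 libraries and in ICAM-1-/- replicate 2. The 3 libraries with a value were WT replicate 2 at 1.17, WT replicate 3 at 0.406 and ICAM-1-/- replicate 3 at 2.11 FPKM. Cdh5, the cadherin of endothelial junctions, was listed at 0 in WT replicate 1 and ICAM-1-/- replicate 2. Its other levels were 0.505 FPKM (WT replicate 2), 0.051 FPKM (WT replicate 3), 1.18 FPKM (ICAM-1-/- replicate 1) and 0.515 FPKM (ICAM-1-/- replicate 3). The 3 endothelial members thus all had their lowest values, or were listed at 0, in WT replicate 1 and ICAM-1-/- replicate 2. They parted in ICAM-1-/- replicate 1, which was the highest library for Cdh5 and listed Emcn at 0. None was highest in both replicate 1 libraries.

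By mean level over the 6 libraries, Pecam1 (17.7 FPKM) was followed by Col1a1 (4.28), Cxcl12 (2.55), Sparc (2.18), Col1a2 (0.93), Emcn (0.615), Lepr (0.549), Cdh5 (0.375), Kitl (0.332) and Col3a1 (0.00851 FPKM). The ranges of neighbours in this order overlapped throughout, and the place of Col1a1 rests on WT replicate 1: over replicates 2 and 3 it averaged 0.0587 FPKM, below Cxcl12 (0.222), Sparc (0.425), Col1a2 (0.112), Emcn (0.922), Lepr (0.085), Cdh5 (0.268) and Kitl (0.0801 FPKM). Of 60 values of members in libraries, 19 were 0. ICAM-1-/- replicate 2 listed 8 of the 10 members at 0, all but Pecam1 and Col1a1, and WT replicate 1 listed 4 at 0. In bulk RNA, fewer cells of a type and less RNA per cell cannot be told apart.

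For 5 of the 10 members, Cxcl12, Lepr, Col1a1, Col1a2 and Sparc, both replicate 1 libraries lay above all of the other 4. The same order held for 9.53% of the 14989 genes above 0 in at least 1 library. With libraries scaled by median of ratios, these 5 members still had it, against 6.81% of all genes. Summed without Pecam1, the members reached 46.2 (WT) and 15.9 FPKM (ICAM-1-/-) in the replicate 1 libraries, against 0.0861 to 4.01 FPKM in the other 4 libraries. Macrophage markers moved with them. All 10 of 10 were higher in both replicate 1 libraries than in the other 4, or 9 of 10 under median-of-ratios scaling. Their summed level was 1698 (WT) and 753 FPKM (ICAM-1-/-) in the replicate 1 libraries, against 22.8 to 114 FPKM in the others. C1qb, a chain of complement C1q, stood at 570 and 258 FPKM in the replicate 1 libraries and at 4.59 to 40.7 FPKM in the others. The part of these cells in the levels of the members was not tested.

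**Figure D2:**
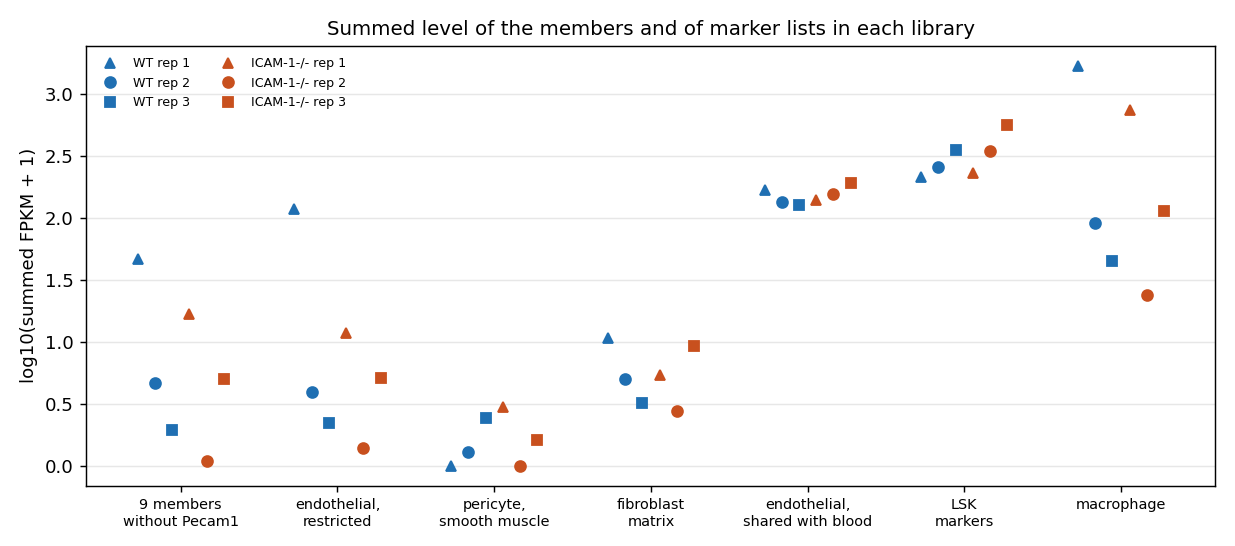
Summed FPKM in each library, as log10(sum + 1), for the members without Pecam1 and for 6 marker lists; colour marks the group and symbol shape the replicate number. The members without Pecam1, the restricted endothelial list and the macrophage list have their highest sums in both replicate 1 libraries, whereas the pericyte list stays at 1.96 FPKM or less and the blood-shared endothelial list between 127 and 191 FPKM.

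Many other stromal markers were listed at 0 in the replicate 1 libraries, in which 28.0% (WT) and 44.1% (ICAM-1-/-) of all genes were above 0. In the mesenchymal list of 12 genes, Pdgfra, Ebf3, Adipoq and Grem1 were listed at 0 in all 6 libraries, and Vcam1 and Angpt1 alone were above 0 in the replicate 1 libraries. Vcam1, an adhesion molecule of stroma and endothelium that marrow macrophages also carry, stood at 449 and 146 FPKM there and at 1.78 to 15.1 FPKM elsewhere. It made up most of the list's sums of 464 and 151 FPKM in these libraries, against 27.3 to 69.6 FPKM in the others. Angpt1, a ligand of the Tie2 receptor made by stroma and by stem cells, ranged from 4.41 to 66.2 FPKM. The platelet-derived growth factor receptor Pdgfrb was listed at 0 in both replicate 1 libraries and stood at 1.65 to 7.70 FPKM in the other 4, and Il7, a cytokine for lymphocytes, did not exceed 0.428 FPKM.

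Of 12 bone-forming lineage genes, Bglap, Bglap2, Ibsp, Dmp1 and Sost were listed at 0 in every library. Runx2, a transcription factor of that lineage, was above 0 in all 6 at 1.25 to 23.1 FPKM, and Spp1, a secreted phosphoprotein, reached 20.8 FPKM in ICAM-1-/- replicate 1. Of 17 fibroblast matrix genes, 8 were listed at 0 in every library: Dcn, Lum, Fmod, Col5a2, Col6a1, Col6a2, Lox and Mgp. The summed level of that list was 9.71 and 4.42 FPKM in the replicate 1 libraries and 1.75 to 8.27 FPKM in the others, so it did not separate them. Bgn, a small proteoglycan, stood at 8.03 FPKM in WT replicate 1 and at 0 to 0.346 FPKM elsewhere, with 0 in ICAM-1-/- replicate 1. Col4a1 and Col4a2 did not follow it. Both were listed at 0 in WT replicate 1, and their highest values were 3.18 FPKM (ICAM-1-/- replicate 3) and 2.77 FPKM (ICAM-1-/- replicate 1). Fn1 stood at 1.69 (WT) and 1.20 FPKM (ICAM-1-/-) in the replicate 1 libraries and at 0.0485 to 1.40 FPKM in the others. Of 8 pericyte and smooth muscle genes, Myh11 and Des were listed at 0 everywhere, and Mcam had the highest single value, 1.96 FPKM in ICAM-1-/- replicate 1. Tagln, Acta2 and Rgs5 were instead listed at 0 in both replicate 1 libraries. They reached 0.567 (WT replicate 3), 0.541 (WT replicate 3) and 0.357 FPKM (ICAM-1-/- replicate 3).

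Endothelial genes outside the members were described in 2 lists. Of 12 genes largely restricted to endothelium, 11 were above 0 somewhere, all but Gpihbp1. The list summed to 117 (WT) and 10.8 FPKM (ICAM-1-/-) in the replicate 1 libraries and to 0.404 to 4.11 FPKM in the others. Gene by gene, 1 of the 12, Stab2, was higher in both replicate 1 libraries than in all others, near the 9.53% over all genes. Both replicate 1 libraries listed Flt1, Mmrn2, Vwa1 and Sox17 at 0, and each of these had low values elsewhere. Sox18, an endothelial transcription factor, made up 86.3 FPKM of the first sum and was otherwise at 0, or at 0.306 FPKM in ICAM-1-/- replicate 3. Stab2, a scavenger receptor of sinusoids, stood at 11.3 and 3.95 FPKM in the replicate 1 libraries and at 0 to 0.506 FPKM in the others. Plvap, a protein of endothelial fenestrae, stood at 14.6 FPKM in WT replicate 1 and at 0.404 to 2.18 FPKM elsewhere, and the junction protein Cldn5 reached 4.54 FPKM in ICAM-1-/- replicate 1. The sums of the 10 endothelial genes that blood cells also express, by contrast, lay between 127 and 191 FPKM in all 6 libraries. Gene by gene, however, 2 of these 10 were higher in both replicate 1 libraries than in all others, against 9.53% over all genes. Under median-of-ratios scaling it was 1 of the 10, against 6.81%. Among the 10, Egfl7, a secreted vascular protein, ranged from 40.3 to 67.2 FPKM. Cd93, a lectin-like receptor, ranged from 26.6 to 79.6 FPKM, and Erg, an ETS transcription factor, from 8.15 to 26.3 FPKM. Icam2, a ligand of leukocyte integrins, varied more, from 0 in WT replicate 1 to 48.9 FPKM in ICAM-1-/- replicate 2. It was the 1 gene of the 10 whose groups did not overlap, where 3.17% of all genes had this, with a difference of 2.33 ± 1.07 (SE; limma adjusted p = 1.00). The mean level of Pecam1, 17.7 FPKM, lay between those of Erg (15.3 FPKM) and Cd93 (48.4 FPKM).

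Receptors of the niche ligands and of collagen varied widely in level. Cxcr4, the receptor of Cxcl12, ranged from 20.6 FPKM in ICAM-1-/- replicate 2 to 198 FPKM in WT replicate 2, and was above Cxcl12 in every library. Kit exceeded its ligand Kitl in every library. The integrin chain Itgb1, part of collagen receptors, ranged from 24.9 to 55.5 FPKM, and Lair1, an inhibitory collagen receptor of leukocytes, from 0 to 5.79 FPKM. The collagen receptors Ddr2 and Gp6 and the leptin gene Lep were listed at 0 in every library. Genes of collagen biosynthesis were detected more widely, 13 of 13 being above 0 somewhere. P4hb, a protein disulfide isomerase and subunit of prolyl hydroxylase, ranged from 49.2 to 354 FPKM. The lysyl hydroxylase Plod3 ranged from 4.89 to 63.4 FPKM and the collagen galactosyltransferase Glt25d1 from 6.79 to 45.7 FPKM. P4ha1, the catalytic prolyl hydroxylase subunit, was highest in WT replicate 1, at 35.7 FPKM against 2.91 to 11.6 FPKM. Serpinh1, the collagen chaperone, was listed at 0 in both replicate 1 libraries and did not exceed 1.30 FPKM.

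The comparison of ICAM-1-/- with WT recipients asked whether donor LSK libraries from a niche without ICAM-1 differed in these transcripts. It was made with limma on log2(FPKM + 1) for the 10477 genes whose mean over the libraries reached 1 FPKM, and differences are ICAM-1-/- minus WT on that scale. Of the 10 members, 4 passed this filter: Cxcl12, Col1a1, Sparc and Pecam1. For the first 3 the means over replicates 2 and 3 were below 1 FPKM, so they passed through the replicate 1 libraries. None of the 4 was called, and 0% of all genes were called at an adjusted p of 0.05, with 44 higher and 10 lower at an unadjusted p of 0.05. With the replicate number as a block 0.124% of genes were called, and within replicates 2 and 3 0.172%, and no member was among them. For 0 of the 10 members did the groups not overlap, against 3.17% of genes above 0 in at least 1 library.

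Col1a1 had the largest difference, -1.21 ± 1.19 (SE), with a limma adjusted p of 1.00. The difference was -0.91 ± 0.99 for Sparc, -0.12 ± 1.09 for Cxcl12 and -0.29 ± 0.86 for Pecam1, with a limma adjusted p of 1.00 each. The median difference over all tested genes was 0.08. Col1a1 and Sparc passed the filter through WT replicate 1 alone, their means without it being 0.216 and 0.84 FPKM. How they passed favours a negative sign, so the sign is read as no support. Without WT replicate 1 the difference of Col1a1 was 0.33, that of Cxcl12 was 0.87 and that of Sparc was -0.05 ± 0.72 (SE). Within replicates 2 and 3 the differences of Col1a1 and Cxcl12 were 0.08 and 0.02, while Sparc was at -0.62 and Pecam1 at -0.99. Without ICAM-1-/- replicate 2 the difference of Pecam1 was 0.45, and those of Cxcl12 without ICAM-1-/- replicates 2 and 3 were 0.44 and 0.16.

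**Figure D3:**
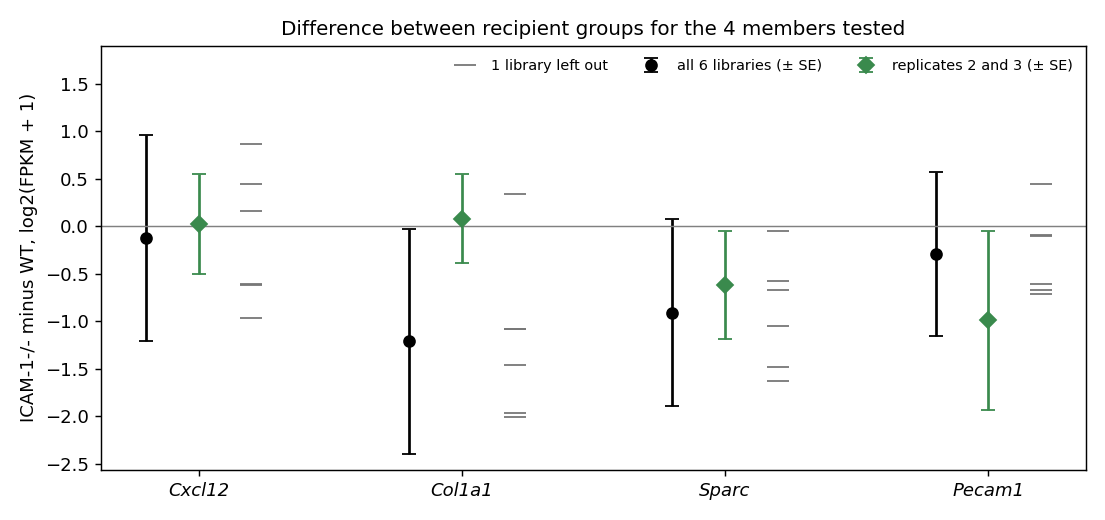
Difference between ICAM-1-/- and WT libraries, in log2(FPKM + 1), for the 4 members tested: black circles use all 6 libraries and green diamonds replicates 2 and 3, both with SE bars, and grey dashes leave out 1 library each. The differences of Col1a1 run from -2.00 to 0.33 with 1 library left out, and those of Cxcl12 from -0.96 to 0.87.

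The 6 members below the filter were tested in a fit without it. Their differences were 0.61 ± 0.34 (SE) for Kitl, 0.35 ± 0.31 for Cdh5, 0.01 ± 0.51 for Emcn, -0.02 ± 0.06 for Col3a1, -0.07 ± 0.46 for Lepr and -0.09 ± 0.66 for Col1a2, with a limma adjusted p of 1.00 each. Exact two-sided permutation tests of the 10 members gave p of 0.4 to 1, where 0.1 is the smallest that 3 against 3 libraries allow. Kitl, with 0.4, was above 0 in 2 of 3 ICAM-1-/- and 0 of 3 WT libraries.

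In the lists, 0 tested members were called in either direction by limma. Tested were 3 mesenchymal genes with a median difference of -0.14, 3 fibroblast matrix genes with -0.26, 2 bone-forming lineage genes with -0.01, 3 restricted endothelial genes with -0.67, and 9 blood-shared endothelial genes with 0.11. A further 5 receptors had a median of -0.13, 8 collagen biosynthesis genes 0.34, 9 LSK markers -0.15 and 10 macrophage genes -0.59. No pericyte gene reached the filter. The median over all tested genes was 0.08. Some list genes, such as Sox18 and Bgn, passed the filter through WT replicate 1, which favours a negative sign. The list medians therefore describe the genes that passed, and nothing is read from them.

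The genes most like each member were sought among the 10477 tested genes by Pearson's r of log2(FPKM + 1) over the 6 libraries, as a description. The replicate 1 libraries lie apart, so for the members that were highest there r rests largely on them. For Pecam1 it rests largely on the low libraries, WT replicate 1 and ICAM-1-/- replicate 2, and both listed Cdh5 at 0. Each r is among the highest of 10477 genes over only 6 libraries, so a value near 1 is read as no support. Nearest to Cxcl12 was Pla2g7, a secreted phospholipase that inactivates platelet-activating factor, at r of 0.998. It was followed by the leukocyte integrin chains Itgad and Itgb2, at 0.995 each. Itgb2 stood at 46.5 and 45.7 FPKM in the replicate 1 libraries and at 19.4 to 22.9 FPKM in the others. Cxcl12 itself was the gene most like Lepr (0.999) and Col1a2 (0.997), followed for both by Pla2g7 and by Aldoart1, a retrogene close in sequence to an aldolase gene, whose reads may not be told apart from it. Col1a1 was followed by Notch3, a Notch receptor, at 0.996, then by Gm10390 and Ccdc17 at 0.994 each. Nearest to Sparc were Bank1, a B cell scaffold protein, at 0.998, Gfra2, a neurturin receptor, at 0.986 and Fam109a at 0.983. Nearest to Cdh5 were 1600020E01Rik (0.997), Sdr42e1 (0.994) and the histone gene Hist1h2an (0.99). Pecam1 was followed by Tmem185b (0.999), the histone demethylase gene Kdm3b (0.995) and 1110037F02Rik (0.995).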

How the data were processed

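RNA of sorted LSK cells was profiled in 6 libraries, 3 per group, with groups and replicate numbers taken from the sample titles and the 8 weeks from the series' design text. Per the labels' protocols, Trizol was used for extraction and an Illumina TruSeq kit for the libraries. The deposited table holds FPKM values by the authors, with a column for each library. The submitters' processing notes name Cufflinks 2.1.1, TopHat2 2.0.11 and cutadapt; no source used here gives the genome build, annotation, strand setting or filters. Depth is unknown: each library held 24 to 111 positive values under 0.001 FPKM, so whole reads were not recovered.

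The members are the rows with the 10 symbols. Members and lists were chosen with earlier results of these data known. Per list, up to 4 genes of highest mean FPKM are named, plus markers listed at 0 throughout. Serpinh1, Scarna2, Xist, Ptprc, Flt1, Mmrn2, Vwa1 and Sox17 were named after their values were seen. Values were analysed as log2(FPKM + 1) with limma 3.58.1 in R 4.3.3, with group as the only term. Settings were genes averaging 1 FPKM or more, Benjamini-Hochberg adjustment at 0.05 and a mean-variance trend. The code was tested on simulated data with known changes. How many such changes the fit would find at the spread of these 6 libraries is not given, so no power is claimed. Genes with 1 value in all libraries used were left out of a fit.

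Same-numbered libraries deviated together from their group means (r across genes of 0.35, 0.13 and 0.31, each over 0.1). Numbers 2 and 3 are not told apart by this, since the crossed pairs gave 0.31 (WT 2 with ICAM-1-/- 3) and 0.15 (WT 3 with ICAM-1-/- 2). Deviations from a group mean balance out, so the r of numbers 2 and 3 depends in part on replicate 1. Whether the numbers are pairs is therefore not settled. The main fit and the permutation tests left pairing out, and the replicate block was an alternative. Promoter windows came from RefSeq (GRCm38.p6) by symbol. In GENCODE M21 no member shares exon bases with another gene of the table. Alternatives covered the pseudocount (0.1 FPKM), the filter, scaling, the replicate block, library weights and left-out libraries.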

Additional observations from a re-analysis of the deposited data

How the results depend on the processing

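No member was called under any of the 12 alternatives, the lowest adjusted p being 0.923 (limma). Over all genes, limma called 11 higher and 2 lower with the replicate block, 10 and 8 within replicates 2 and 3, and 3 and 1 with library weights (Ifi202b, Mir703 and Snord34 higher, Mir5109 lower); no member was among them. With 1 library left out the calls were 0 to 2 higher and 0 to 1 lower: Snora78 and Snord22 without ICAM-1-/- replicate 1, and 1810006K21Rik without ICAM-1-/- replicate 3. The block changed no call of a member. The sign of the difference turned for Cxcl12 and Col1a1 within replicates 2 and 3 (0.0249 and 0.0802), and for Cxcl12, Col1a1 and Pecam1 with library weights (0.79, 0.19 and 0.0063). Leaving out 1 library gave -0.96 to 0.87 for Cxcl12 (above 0 without WT replicate 1, 0.87, or ICAM-1-/- replicates 2, 0.44, or 3, 0.16), -2.00 to 0.33 for Col1a1 (above 0 without WT replicate 1), -1.63 to -0.05 for Sparc and -0.71 to 0.45 for Pecam1 (above 0 without ICAM-1-/- replicate 2). The cause was not tested. With a pseudocount of 0.1 FPKM the untested differences of Kitl, Cdh5 and Col3a1 were 2.07, 1.03 and -0.20. Groups did not overlap for 4.08% of tested genes in the main analysis, 7.35% under median-of-ratios scaling, 15.9% within replicates 2 and 3, and 7.76% to 25.4% with 1 library left out (25.4% without ICAM-1-/- replicate 2, 13.2% without ICAM-1-/- replicate 3); fewer libraries overlap less by construction. Median-of-ratios scaling moved the median difference of all tested genes from 0.08 to 0.24, with Pecam1 at -0.07 and, untested, Emcn at -0.07. FPKM without counts gives no depth, so what depth limits is unknown.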

Other observations

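Markers of other blood lineages did not follow the stromal members. The 9 megakaryocyte and platelet genes summed to 19.7 and 67.6 FPKM in the replicate 1 libraries of WT and ICAM-1-/- recipients and to 17.8 to 72.6 FPKM in the others. Itga2b, the platelet integrin chain, ranged from 3.17 to 32.0 FPKM, and Pf4, a platelet chemokine, was listed at 0 in WT replicate 1. The 6 erythroid genes summed to 0.00454 and 8.59 FPKM in these 2 libraries and to 1.28 to 76.0 FPKM in the rest. The 6 neutrophil genes summed to 606 and 184 FPKM in the replicate 1 libraries and to 289 to 2131 FPKM in the others, and the 5 B cell genes to 38.8 and 57.0 FPKM against 39.2 to 148 FPKM. None of the tested genes of these lists was called between the groups (limma). Their median differences were 0.41 for megakaryocyte, -0.10 for erythroid, -2.03 for neutrophil and -0.48 for B cell genes, beside 0.08 over all tested genes. Of the neutrophil genes, ICAM-1-/- replicate 1 listed Ltf, S100a9, Camp and Ngp at 0, while S100a8 and Lcn2 were above 0 there. Nothing is read from these medians.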
